A study of Mus musculus with 15 samples.

Results

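The genes described here are 10 components of the tight junction, taken by symbol from the 17271 genes of an RNA-seq table of mouse mammary tumours. They are the claudins Cldn1, Cldn3, Cldn4 and Cldn7, the MARVEL-domain proteins Ocln, Marveld2 and Marveld3, the junctional adhesion molecule F11r, and the cytoplasmic plaque proteins Tjp3 and Cgn. All 10 symbols were found once. The 15 samples were tumours labelled p53-NULL, the loss of the tumour suppressor p53 being shared by every group, and strain Balbc, and were grown in mice. They belonged to 4 tumour models. 2208L had 8 samples, 2151R had 4, 2225L had 2 and T11 had 1. By their titles, 4 samples of 2208L were marked PBS (replicates 2 to 5), 3 were marked 3day nt (replicates 6 to 8) and 1 was marked ROSEN (replicate 1). In 2225L, replicate 1 was marked T-Vivo and replicate 2 ROSEN. In 2151R, replicates 3 and 4 were marked NT2 and NT, while the marks of replicates 1 and 2 are not explained in the labels. No age, dose or treatment of single animals is given in the labels used here, nor how each model is kept. The labels do not say that samples of a model came from separate animals, so the p-values measure the spread between these samples, which may be in part technical.

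Tight junctions seal the space between neighbouring epithelial cells at the border of their apical and lateral membranes. Claudins polymerise into the strands of the seal and set which ions can pass, occludin and its MARVEL-domain relatives shape the strands and the corners where several cells meet, and junctional adhesion molecules hold the membranes together from outside. Inside the cell, zonula occludens proteins and cingulin tie the strands to actin and myosin. In the mammary gland these junctions close the ducts and alveoli, and low levels of Cldn3, Cldn4 and Cldn7 gave the claudin-low class of breast and mouse mammary tumours its name.

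The values are log2 expression values that the authors centred for each gene on a median, so that a value of 1 is 1 doubling above a reference level of that gene which is not given. Values of different genes therefore cannot be ranked against each other, and a value does not show whether a gene is expressed at all. The table holds no counts, and the depth of the samples is unknown.

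In the RefSeq annotation of GRCm38.p6, Cldn1 spans chr16:26356645-26371839 on the minus strand, Cldn7 chr11:69964779-69967886 on the plus strand, Marveld3 chr8:109947909-109962205 on the minus strand, Tjp3 chr10:81273188-81291581 on the minus strand, Cgn chr3:94760069-94787725 on the minus strand and F11r chr1:171437561-171464593 on the plus strand. Cldn4 (chr5:134945123-134946934, minus strand) and Cldn3 (chr5:134986214-134987476, plus strand) are next to each other among the genes of the table, as are Ocln (chr13:100496504-100552718, minus strand) and Marveld2 (chr13:100595957-100616971, minus strand).

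Their promoters are shown for 1 short word that recurs in many of them, and its part in the levels of these genes was not tested. RefSeq promoter windows of 300 bases, 250 before and 50 after an annotated start, were held for 9 of the 10 genes, all but Marveld3. The word searched was CAGGTG, which reads CACCTG on the other strand, an E-box to which the zinc finger repressors Zeb1, Zeb2, Snai1 and Snai2 can bind. It stood in a window of 7 of the 9 genes (Cldn3, Cldn4, Cldn7, Ocln, Marveld2, Tjp3 and F11r) and was not in those of Cldn1 and Cgn. Over all genes with a window the share was 22.6% of 27025. By window, 10 of 13 held it, some of which overlap, against 20.2% of all windows. The 13 windows of these 9 genes were richer in G and C, with a median of 60.3% (range 45.3% to 70.3%) against 52.7% over all windows, and the part of this in the count of words was not tested. A second word, AACCGGTT, which Grainyhead-like factors can bind, was in none of the 9 and in 0.146% of the 32851 windows. A match is a run of letters and no evidence that a factor binds there. For each of the 7 genes, 1 stretch of 30 bases with the word in capitals reads as follows, from 5′ to 3′ on the strand of the gene.
Cldn3, chr5:134986233-134986262, untranslated exon: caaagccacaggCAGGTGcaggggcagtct
Cldn4, chr5:134946906-134946935, untranslated exon: cctttcttgttgCAGGTGcaggcaggaaag
Cldn7, chr11:69965352-69965381, intron: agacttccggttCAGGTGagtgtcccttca
Ocln, chr13:100552694-100552723, untranslated exon: ccatcggagtttCAGGTGaatgggtcaccg
Marveld2, chr13:100616922-100616951, untranslated exon: agcgtgctgttccggcggccgcgCAGGTGa
Tjp3, chr10:81291672-81291701, upstream: gtcacaaggggtCAGGTGtacagacaggga
F11r, chr1:171437427-171437456, upstream: agttcggggttgCACCTGcgtacggtgagt

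The 250 bases before the start are given for 2 claudins, Cldn4, where the word stands once and begins 14 bases before the start, and Cldn1, which holds none. Both are on the minus strand of GRCm38.p6, and the capitals again mark the word.
Cldn4, chr5:134946935-134947184: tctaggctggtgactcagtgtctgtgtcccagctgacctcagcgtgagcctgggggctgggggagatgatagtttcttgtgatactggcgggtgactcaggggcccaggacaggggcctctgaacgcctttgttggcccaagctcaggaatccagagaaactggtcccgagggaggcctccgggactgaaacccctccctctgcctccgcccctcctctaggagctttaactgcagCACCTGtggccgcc
Cldn1, chr16:26371840-26372089: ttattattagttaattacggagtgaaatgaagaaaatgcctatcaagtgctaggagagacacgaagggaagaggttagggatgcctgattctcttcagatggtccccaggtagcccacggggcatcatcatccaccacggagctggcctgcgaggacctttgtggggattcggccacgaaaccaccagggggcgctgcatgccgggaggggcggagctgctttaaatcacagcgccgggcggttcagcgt

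Some libraries stand apart. The mean of 6 skeletal muscle markers reached 7.99 in 2151R (replicate 3), and in 2208L it reached 11.01 (replicate 6) and 10.5 (replicate 8), while it ran from -3.82 to 3.27 in the other samples. For the 10 genes and the named pathway genes, calls that changed without these samples are given with and without them. All samples of 2151R, those of 2208L marked PBS and those marked 3day nt each carry their own range of numbers at the end of their titles. What these numbers and the prefix before them (CP or ROSEN) stand for is not given. A model or subset and its number range cannot be told apart.

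Whether tight junction genes differ between the models was examined with 2151R against 2208L. All 10 genes were lower in 2151R (limma, Benjamini-Hochberg adjusted p under 0.05 over all 17271 genes), and no sample of 2151R reached any sample of 2208L in any of them. Over all genes, 22.7% were called lower in 2151R and 26.1% higher, and 18.2% lay lower without overlap. The 10 differences ran from -3.68 for Tjp3 to -8.34 for Cldn7, with a median of -6.14, beside a median of 0.10 over all genes. On the deposited scale these are values 12.8-fold lower for Tjp3 and 325-fold lower for Cldn7. In bulk tissue, fewer junction-bearing cells and less of each RNA per cell cannot be told apart.

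**Figure D1:**
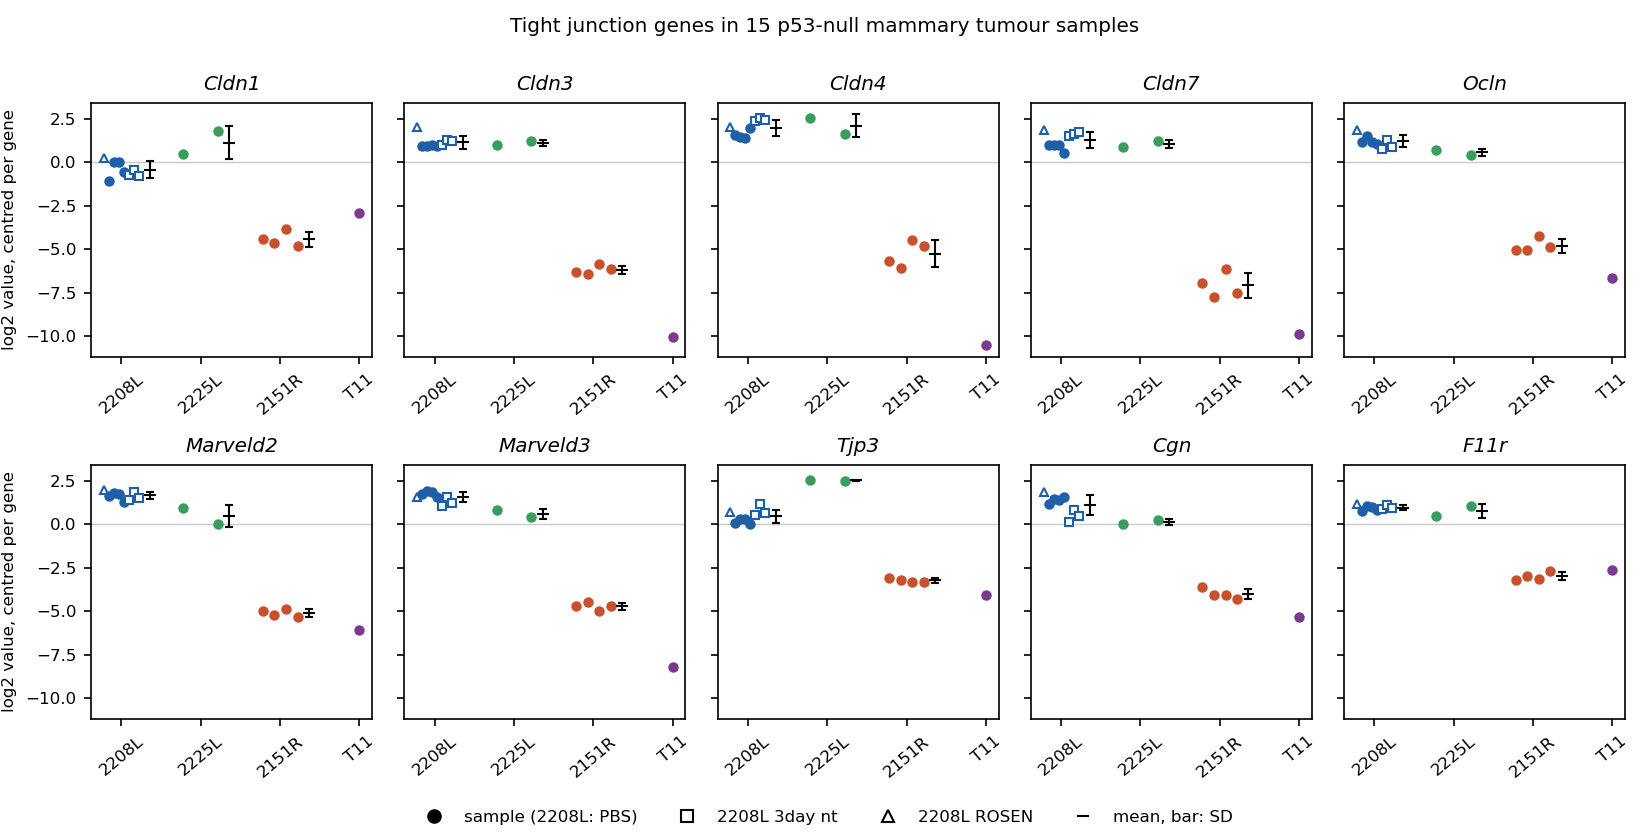
Log2 values, centred per gene, of the 10 tight junction genes (vertical axis, log2 units) in each of the 15 samples, grouped by tumour model; points are samples, and the black marks and bars are the mean and SD of groups with more than 1 sample. The samples of 2208L and 2225L lie between -1.08 and 2.55 in every panel, and those of 2151R and T11 lie at -2.64 or below.

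Cldn3, Cldn4 and Cldn7 are barrier-forming claudins of simple epithelia. Cldn7 stood at -6.92, -7.72, -6.16 and -7.52 in replicates 1 to 4 of 2151R, and from 0.53 (median 1.24) to 1.86 in the 8 samples of 2208L. Every sample of 2151R was thus far below every sample of 2208L, with a difference of -8.34 (SE 0.31, limma adjusted p 1.49e-10). Cldn3 stood at -6.29, -6.40, -5.87 and -6.14 in 2151R and from 0.91 (median 0.99) to 2.02 in 2208L, and the difference was -7.33 (SE 0.20, limma adjusted p 1.52e-11). Its 4 values in 2151R lay close together (SD 0.229). Cldn4 stood at -5.68, -6.08, -4.44 and -4.80 in 2151R and from 1.39 (median 2.0) to 2.53 in 2208L, and differed by -7.21 (SE 0.33, limma adjusted p 1.23e-09). Of the 10 genes, Cldn4 varied most within 2151R (SD 0.758), and even its highest sample stayed below the lowest of 2208L. Cldn1, a claudin of stratified epithelia and skin that is also made in the mammary gland, stood at -4.41, -4.64, -3.82 and -4.82 in 2151R and from -1.08 (median -0.49) to 0.22 in 2208L. Its difference was smaller, -4.0 (SE 0.30, limma adjusted p 1.89e-07), and the groups again did not overlap.

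Occludin and its relatives were lower in 2151R too. Ocln, which encodes the strand protein occludin, stood at -5.07, -5.07, -4.22 and -4.86 in 2151R and from 0.74 (median 1.15) to 1.82 in 2208L. The difference was -6.00 (SE 0.22, limma adjusted p 1.31e-10). Marveld2, which encodes tricellulin, a protein of the corners where more than a pair of cells meet, stood at -4.99, -5.22, -4.87 and -5.31 in 2151R and from 1.29 (median 1.69) to 1.94 in 2208L. It differed by -6.74 (SE 0.18, limma adjusted p 1.40e-11), and both groups were tight, with SDs of 0.202 and 0.226. Marveld3, the third MARVEL protein of the junction, stood at -4.71, -4.45, -5.0 and -4.71 in 2151R and from 1.05 (median 1.58) to 1.93 in 2208L. The difference of Marveld3 was -6.28 (SE 0.18, limma adjusted p 1.67e-11).

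The adhesion molecule and the plaque proteins differed by less than occludin and its relatives, though Cgn differed by more than the claudin Cldn1. F11r encodes JAM-A, which helps polarity proteins to reach young contacts, and it stood at -3.21, -2.96, -3.12 and -2.67 in 2151R and from 0.76 (median 0.95) to 1.16 in 2208L. F11r had the narrowest spread of the 10 within 2208L (SD 0.139), and its difference was -3.95 (SE 0.14, limma adjusted p 1.48e-10). Tjp3 encodes the scaffold ZO-3, found mainly in epithelia, and stood at -3.06, -3.19, -3.32 and -3.33 in 2151R and from 0 (median 0.40) to 1.16 in 2208L. Its difference of -3.68 (SE 0.20, limma adjusted p 4.96e-09) was the smallest of the 10, and 3.53% of all genes lay at or below it. Cgn, cingulin, which links the plaque to myosin and microtubules, stood at -3.61, -4.05, -4.07 and -4.29 in 2151R and from 0.12 (median 1.28) to 1.83 in 2208L, and differed by -5.10 (SE 0.29, limma adjusted p 1.02e-08). Cgn was the most variable of the 10 within 2208L (SD 0.587). Exact two-sided permutation tests of the 10 genes each gave 0.00404, the smallest p that 4 against 8 samples allow. Without the 3 samples of high muscle score 10 of the 10 genes were still called lower.

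**Figure D2:**
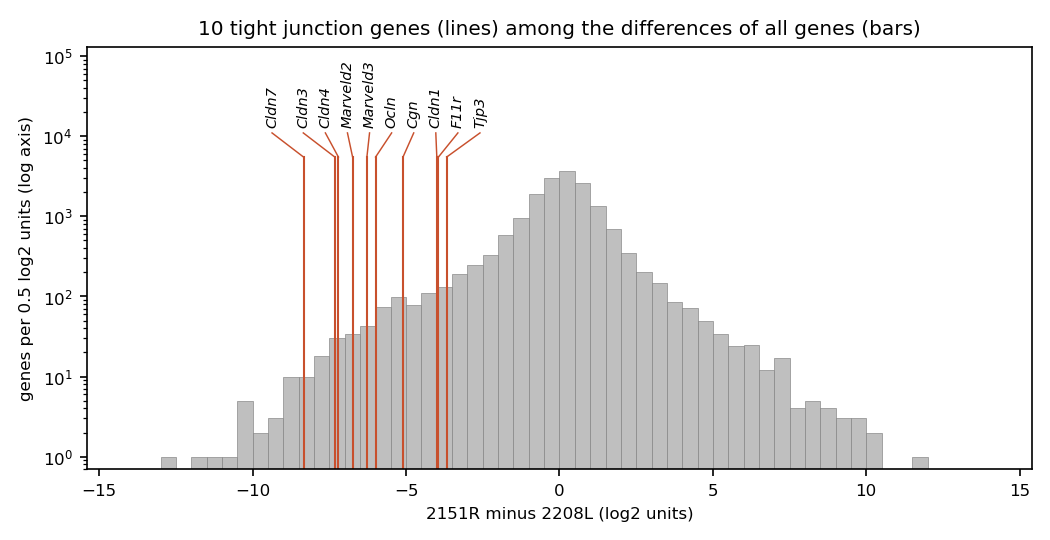
Number of genes (vertical log axis) by their difference between 2151R and 2208L in bins of 0.5 log2 units (horizontal axis), with 1 line for each of the 10 tight junction genes. The lines lie between -8.34 and -3.68, in the left tail, while the median of all genes is 0.10.

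Markers of other cell types differed between these models as well, and over all genes 26.1% were called higher in 2151R and 22.7% lower. Of 8 endothelial markers 6 were higher in 2151R and 0 lower, with list means of 0.257 to 0.907 in 2151R and -1.13 to 0.366 in 2208L. Of 6 leukocyte markers 4 were higher and 0 lower, with list means of 0.429 to 0.889 in 2151R and -0.998 to 0.259 in 2208L. Of 8 epithelial markers 6 were lower and 2 higher, the list means being -2.90 to -1.73 in 2151R and -0.276 to 1.45 in 2208L. The 2 that were higher were the keratins Krt5 (difference 4.73) and Krt19 (difference 3.61), which basal and luminal epithelial cells make. Both had overlapping samples, and at Krt5 replicates 2 and 3 of 2208L share 1 exact value, which may not be a measured level. Of 6 muscle markers 0 were called, of 5 myelin markers 2 were lower, and of 4 platelet markers 1 was lower. The myelin and platelet lists are too short to set such counts apart from the 22.7% of all genes. The part of any of these cell types in the levels of the junction genes was not tested.

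2225L was compared with 2151R and with 2208L, and these comparisons share samples with the one above. Against 2151R, all 10 genes were higher in 2225L by limma and none overlapped, where 22.8% of all genes were called higher and 28.9% lay higher without overlap. The differences ran from 3.76 (SE 0.20) for F11r to 8.11 (SE 0.44) for Cldn7, with a median of 5.54. In order of level, 2225L and 2208L were thus above 2151R for each of the 10 genes. With 2 against 4 samples the exact permutation test cannot go below 0.133, which all 10 genes reached.

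Against 2208L, the 10 genes went in both directions. Cldn1 and Tjp3 were called higher in 2225L, Marveld2 and Marveld3 lower, and 6 were not called, where 15.6% of all genes were called higher and 17.3% lower. Tjp3 stood at 2.54 and 2.49 in the samples of 2225L, both above the highest sample of 2208L (1.16), with a difference of 2.07 (SE 0.25, limma adjusted p 5.16e-05). Cldn1 stood at 0.44 and 1.78, both above the highest of 2208L (0.22), with a difference of 1.53 (SE 0.39, limma adjusted p 0.00928). The call of Cldn1 rests on replicate 2, without which the difference was 0.86 (limma adjusted p 0.200). Marveld2 stood at 0.90 and 0, below the lowest sample of 2208L (1.29), and differed by -1.2 (SE 0.23, limma adjusted p 0.00179). Marveld3 stood at 0.81 and 0.41, again below the lowest of 2208L (1.05), and differed by -0.95 (SE 0.23, limma adjusted p 0.00659), which was not called without replicate 2 of 2225L (difference -0.75, limma adjusted p 0.0880). In Marveld2 and Marveld3 the level of 2225L thus lay between those of 2151R and 2208L.

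For the other genes the interval of the difference is the measure of what these samples can tell. Cldn3 stood at 0.96 and 1.23 in 2225L, inside the range of 2208L, and differed by -0.06 (95% interval -0.62 to 0.51, limma adjusted p 0.891). Cldn7 stood at 0.86 and 1.2 and differed by -0.24 (95% interval -1.09 to 0.62). Cldn4 stood at 2.55 and 1.64 and differed by 0.14 (95% interval -0.79 to 1.06), and F11r stood at 0.49 and 1.05 and differed by -0.18 (95% interval -0.59 to 0.22). A difference of 1 log2 unit is thus outside the interval of Cldn3 and F11r and inside that of Cldn4 in the upward and Cldn7 in the downward direction. Ocln stood at 0.70 and 0.40, both below the lowest sample of 2208L (0.74), but its difference of -0.64 was not called (limma adjusted p 0.0972). Cgn stood at 0 and 0.24 and its difference of -0.98 was not called either (limma adjusted p 0.0625). With the title prefix (CP or ROSEN) as a covariate, however, Cgn was called lower (difference -1.21, limma adjusted p 0.0286). It was also called lower without replicate 6 (limma adjusted p 0.0164) or replicate 8 (limma adjusted p 0.0414) of 2208L. Without the 3 samples of high muscle score Ocln (difference -0.77) and Cgn (difference -1.24) were called lower. Exact permutation tests gave 5 of the 10 genes 0.0444, the smallest p of 2 against 8 samples.

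**Figure D3:**
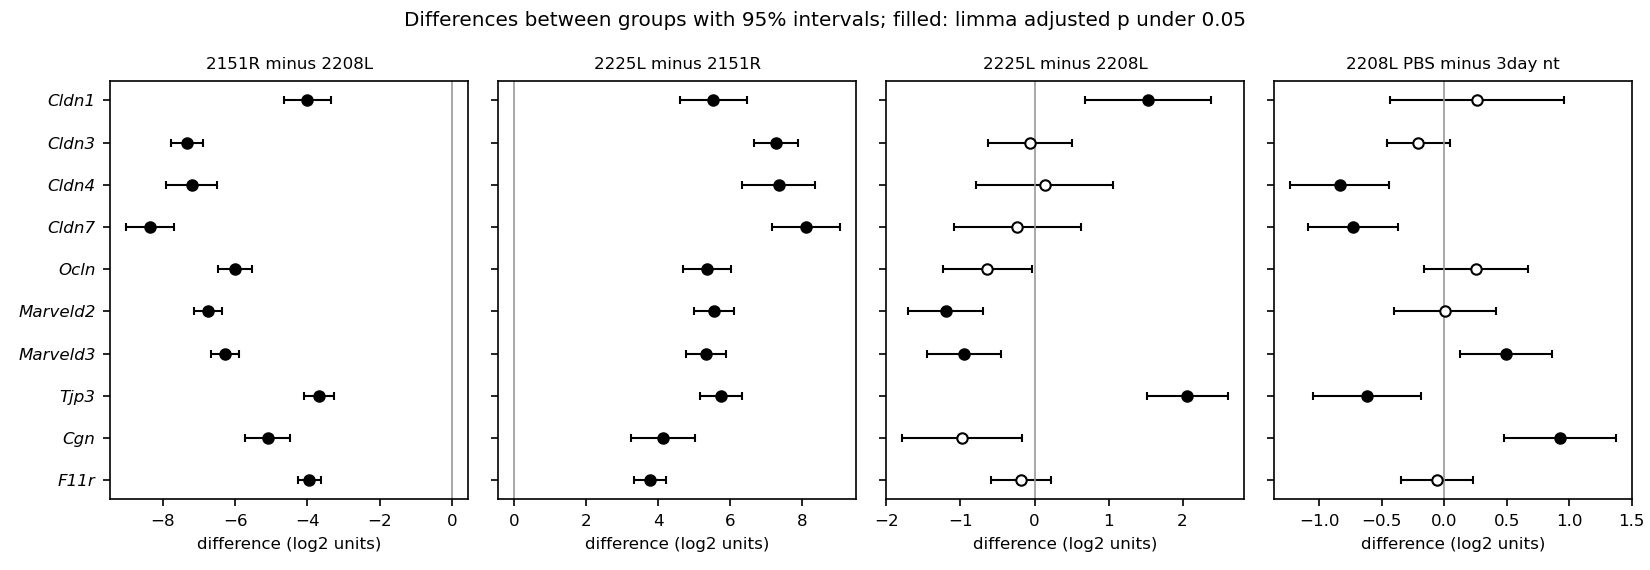
Difference in log2 units (horizontal axis, a different range in each panel) of the 10 genes in 4 comparisons, with 95% intervals; filled points have a limma adjusted p under 0.05. All points are filled and on one side of 0 in the panels with 2151R, while 4 and 5 points are filled, on both sides of 0, in the panels of 2225L against 2208L and of PBS against 3day nt.

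T11 has 1 sample, so its differences carry no test and are counted past 1 log2 unit. All 10 genes were lower in T11 than in 2208L by more than that, and below all 8 samples of 2208L, where 15.6% of all genes were lower by at least 1 unit and 21.7% lay below the range. Cldn4 stood at -10.51, Cldn3 at -10.05 and Cldn7 at -9.88 in T11, with differences from the mean of 2208L of -12.47, -11.21 and -11.14. These 3 claudins had the lowest values of the 10 in T11, followed by Marveld3 at -8.19, Ocln at -6.67, Marveld2 at -6.05, Cgn at -5.32 and Tjp3 at -4.07. Cldn1 (-2.91) and F11r (-2.64) had the highest values, with differences from 2208L of -2.49 and -3.60. The order of these centred values describes distances from each gene's own reference and not which RNA was scarcer.

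T11 was also compared with 2151R. Of the 10 genes 8 lay below all samples of 2151R in T11 and 2 above, where 30.8% of all genes lay below and 39.9% above. Past 1 log2 unit there were 6 lower and 1 higher, where 10.5% of all genes were lower and 15% higher. The differences from the mean of 2151R were -5.27 for Cldn4, -3.88 for Cldn3, -3.47 for Marveld3, -2.80 for Cldn7, -1.87 for Ocln and -1.31 for Cgn. Cldn1 went the other way with a difference of 1.51, and F11r stood above the range of 2151R with a difference of 0.35. With quantile normalization of the samples 3 genes remained lower past 1 unit, Cldn4 (-2.65), Marveld3 (-1.21) and Cldn3 (-1.06). Cldn7 then changed sign to 0.25, and Marveld2 went from -0.95 on the deposited values to 0.16, while Cldn1 stayed higher at 1.30. The mean of the epithelial markers was -7.38 in T11 and that of the leukocyte markers 1.35, outside the ranges of 2151R given above, and their part was not tested.

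Within 2208L the samples marked PBS were compared with those marked 3day nt. By limma on these 7 samples, Cldn4, Cldn7 and Tjp3 were lower in PBS and Cgn and Marveld3 higher, where 16.5% of all genes were called lower and 17.4% higher. Cgn stood at 1.15, 1.43, 1.41 and 1.56 in PBS and at 0.12, 0.80 and 0.47 in 3day nt, with no overlap, and differed by 0.93 (SE 0.19, limma adjusted p 0.0125). Cldn4 stood at 1.57, 1.43, 1.39 and 1.98 in PBS and at 2.34, 2.53 and 2.42 in 3day nt, also without overlap, and differed by -0.84 (SE 0.17, limma adjusted p 0.0119). Cldn7 differed by -0.73 (SE 0.15, limma adjusted p 0.0137), Tjp3 by -0.62 (SE 0.18, limma adjusted p 0.0408) and Marveld3 by 0.49 (SE 0.15, limma adjusted p 0.0477). These 5 differences are small beside those from 2151R. The call of Tjp3 was lost in 9 of the settings tried, among them leaving out any single sample, and that of Marveld3 in 8. None of the 5 calls was kept without replicates 6 and 8, the samples of 3day nt with high muscle markers, which leaves 1 sample of 3day nt that is assumed to vary like PBS. In that setting 76 genes were called higher and 22 lower of all 17271, so the loss is shared by most genes. Cgn then differed by 0.59 (limma adjusted p 0.239), Cldn4 by -0.93 (limma adjusted p 0.190), Cldn7 by -0.73 (limma adjusted p 0.221), Tjp3 by -1.0 (limma adjusted p 0.119) and Marveld3 by 0.23 (limma adjusted p 0.575). Without replicate 8 alone 0 of the 10 were called, where 1362 genes were higher and 1017 lower over all genes, and the smallest exact p that 4 against 3 samples allow is 0.0571.

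Other genes of the junction were taken from lists of 84 symbols, of which 62 were in the table. Between 2151R and 2208L, 27 of the 62 were lower and 15 higher by limma (22.7% and 26.1% of all genes), with a median of -0.02 beside -6.14 for the 10 genes. Among 11 other claudins 4 were lower and 3 higher. Cldn2, which forms pores for cations and water, differed by -7.68 (SE 0.40, limma adjusted p 4.45e-09), standing at -3.76 to -2.25 in 2151R and 4.46 to 5.55 in 2208L. Cldn8, a sealing claudin of the distal nephron and other ducts, differed by -4.13 (SE 0.47). Cldn6, a claudin of embryonic epithelia, was 3.82 higher in 2151R (SE 0.57, limma adjusted p 0.000101), although replicates 5 and 8 of 2208L share 1 exact value, which may not be a measured level. In 2225L Cldn6 stood at 7.45 and 8.12, above every sample of the other models, and differed from 2208L by 10.81 (SE 0.74, limma adjusted p 3.68e-07). Cldn12 was higher by 1.64 (SE 0.12). Cldn5, the claudin of endothelial cells, was not called (difference 0.69, 95% interval -0.37 to 1.75, limma adjusted p 0.265). With sample weights, however, Cldn5 was called higher (difference 1.07, limma adjusted p 0.0124).

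Most of the remaining lists held genes called in each direction, beside 22.7% of all genes lower in 2151R and 26.1% higher. Of the 3 tricellular proteins 2 were lower, Lsr (difference -6.42, SE 0.18) and Ildr1 (difference -5.60, SE 0.32), the angulins that recruit tricellulin to cell corners. Of 6 junctional immunoglobulin proteins 2 were lower and 2 higher. The virus receptor Cxadr differed by -5.90 (SE 0.27) and Igsf5 by -1.06 (SE 0.30), the latter with overlapping samples, while Clmp was higher by 2.28 (SE 0.32) and Jam2, or JAM-B, by 1.19 (SE 0.46, limma adjusted p 0.0479). The call of Igsf5 was lost in 3 settings, with its difference at -0.28 under quantile normalization (limma adjusted p 0.557). Without the 3 samples of high muscle score the difference of Igsf5 was -0.89 (limma adjusted p 0.0642) and that of Jam2 1.35 (limma adjusted p 0.0751), both not called. The call of Jam2 was lost in 14 of the settings tried, such as without replicate 2 of 2151R (difference 0.86, limma adjusted p 0.171). Of 14 scaffolds 5 were lower and 6 higher. Patj differed by -5.63 (SE 0.26) and the cingulin relative Cgnl1 by -4.37 (SE 0.23), whereas Magi3 was higher by 1.54 (SE 0.26) and Tjap1 by 1.37 (SE 0.12). Tjp1, which encodes ZO-1, a scaffold also used by cells without tight junctions, was not called (difference 0.07, 95% interval -0.68 to 0.81, limma adjusted p 0.885).

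Of 13 polarity proteins 6 were lower and 2 higher in 2151R, beside the same 22.7% and 26.1% of all genes. Crb3, the epithelial Crumbs protein of the apical membrane, differed by -6.29 (SE 0.26) and Pard6b by -5.41 (SE 0.20). Pard6g, a relative of Pard6b, was higher by 1.42 (SE 0.14), and Pard3b was higher by 1.33 (SE 0.31). Of 9 regulators 3 were lower and 2 higher, among them the kinase Wnk4 (difference -6.72, SE 0.37), the receptor Ephb4 (difference -1.37, SE 0.15), the trafficking GTPase Rab13 (difference 0.66, SE 0.15) and the GTPase-activating protein Arhgap17 (difference 0.45, SE 0.14). The call of Arhgap17 was lost without replicate 1 of 2151R (limma adjusted p 0.0605), and with samples titled NT, nt or PBS alone those of Arhgap17 (limma adjusted p 0.0869) and Pard3b (limma adjusted p 0.0795) were lost. Of 6 membrane partners and proteases 5 were lower and 0 higher. Epcam, which binds Cldn7, differed by -6.58 (SE 0.26), and St14, the protease matriptase that cleaves Epcam, by -6.55 (SE 0.18). Against 2208L, 2225L had 14 of the 62 genes higher and 9 lower, beside 15.6% and 17.3% of all genes. In T11 22 were lower than in 2208L by at least 1 unit and 14 higher, where 15.6% and 22.9% of all genes were.

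**Figure D4:**
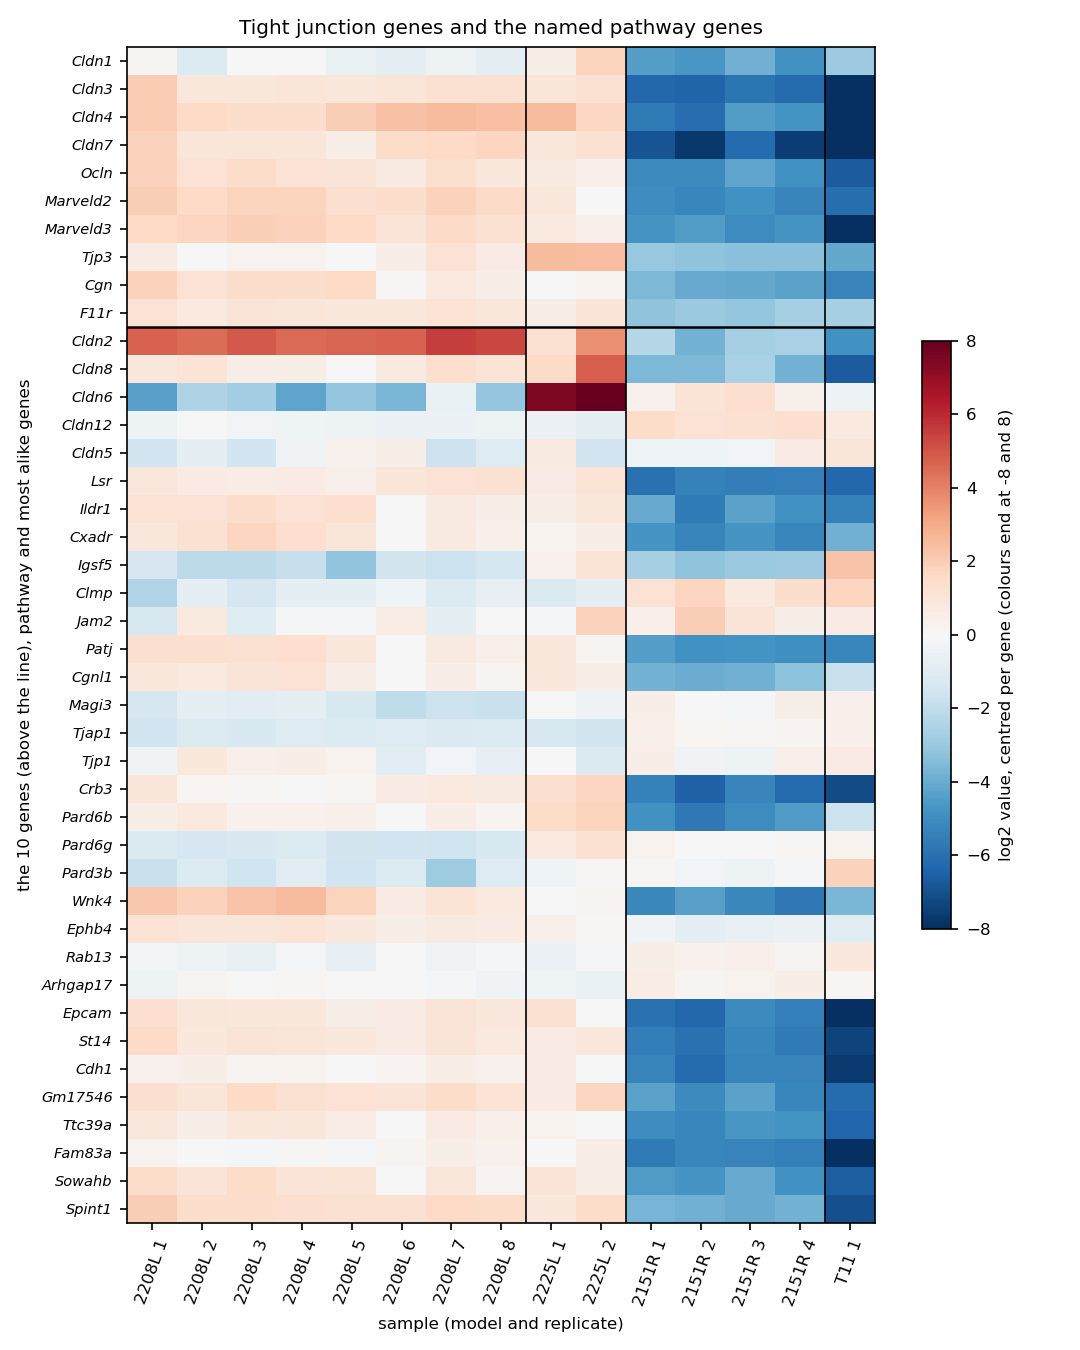
Log2 values, centred per gene, in each of the 15 samples (columns, by model and replicate) for the 10 tight junction genes (above the line), the named pathway genes and the genes most like the 10; blue is below and red above each gene's reference, with colours ending at -8 and 8. The 10 genes, Lsr, Crb3, Epcam and Cdh1 are blue in 2151R and T11, and Cldn6 is deep red in 2225L.

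The genes whose pattern over the 15 samples was most like that of the 10 were sought by the root mean square distance to the mean of the 10 genes, each gene being centred on its own mean. The closest of 17261 other genes was Cdh1, the E-cadherin gene of the adherens junction, at 0.244 log2 units, where the median gene lay at 3.09. Others among the closest 8 were Gm17546 (0.304), St14 (0.327), Ttc39a (0.334), Fam83a (0.359), Sowahb (0.390) and Spint1 (0.406), the last encoding an inhibitor of matriptase. The same 8 genes came out when each sample was first centred on its own median. Cdh1 stood at -5.34 to -6.13 in 2151R and differed from 2208L by -5.84 (SE 0.18). A difference of about this size follows from its closeness to the mean of the 10 in these same samples, and is no further result. Measured against the other 9 of its own group, Ocln was the most typical gene (0.290) and Cldn1 the least (1.61), with the 4 claudins, F11r and Tjp3 lying between 1.12 and 1.61. Many genes outside the group lay closer to its mean than most of its own genes. This distance counts the size of a difference as well as its direction. Outside genes were measured to the mean of the 10 and each gene of the group to the mean of the other 9, so the counts are approximate. Closer to the mean of the 10 than the median gene of the group lay 264 other genes. For Ocln this number was 1 and for Cldn1 486. The samples share their model and title number range, so this likeness is a description of 4 models and not of 15 independent points.

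Genes next to the 10 on the chromosomes were called in both directions. Of 80 neighbours within 5 genes on either side, 21 (26.25%) were lower in 2151R relative to 2208L and 19 (23.75%) higher, beside 22.7% and 26.1% of all genes, and their median difference was -0.0006. Of the 16 genes directly beside the 10 or beside a pair of them, 5 were lower, 2 higher and 9 not called. Beside the pair of Cldn4 and Cldn3, Wbscr25 on the side of Cldn3 was lower (difference -3.83, SE 0.34) and Mettl27 on the side of Cldn4 was not called (difference -0.25, SE 0.26). Beside Marveld3, Zfp612 was lower (difference -3.61, SE 0.33), and beside Cldn1, P3h2 was lower (difference -3.05, SE 0.46). Selenbp2 beside Cgn (difference -1.96, SE 0.59) and Tstd1 beside F11r (difference -1.95, SE 0.35) were lower too. Beside the pair of Ocln and Marveld2, Gtf2h2 (difference 0.75, SE 0.14) and Rad17 (difference 0.79, SE 0.13) were higher. Neither neighbour of Cldn7 or of Tjp3 was called, nor was the gene on the other side of Cldn1, Marveld3, Cgn and F11r.

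**Figure D5:**
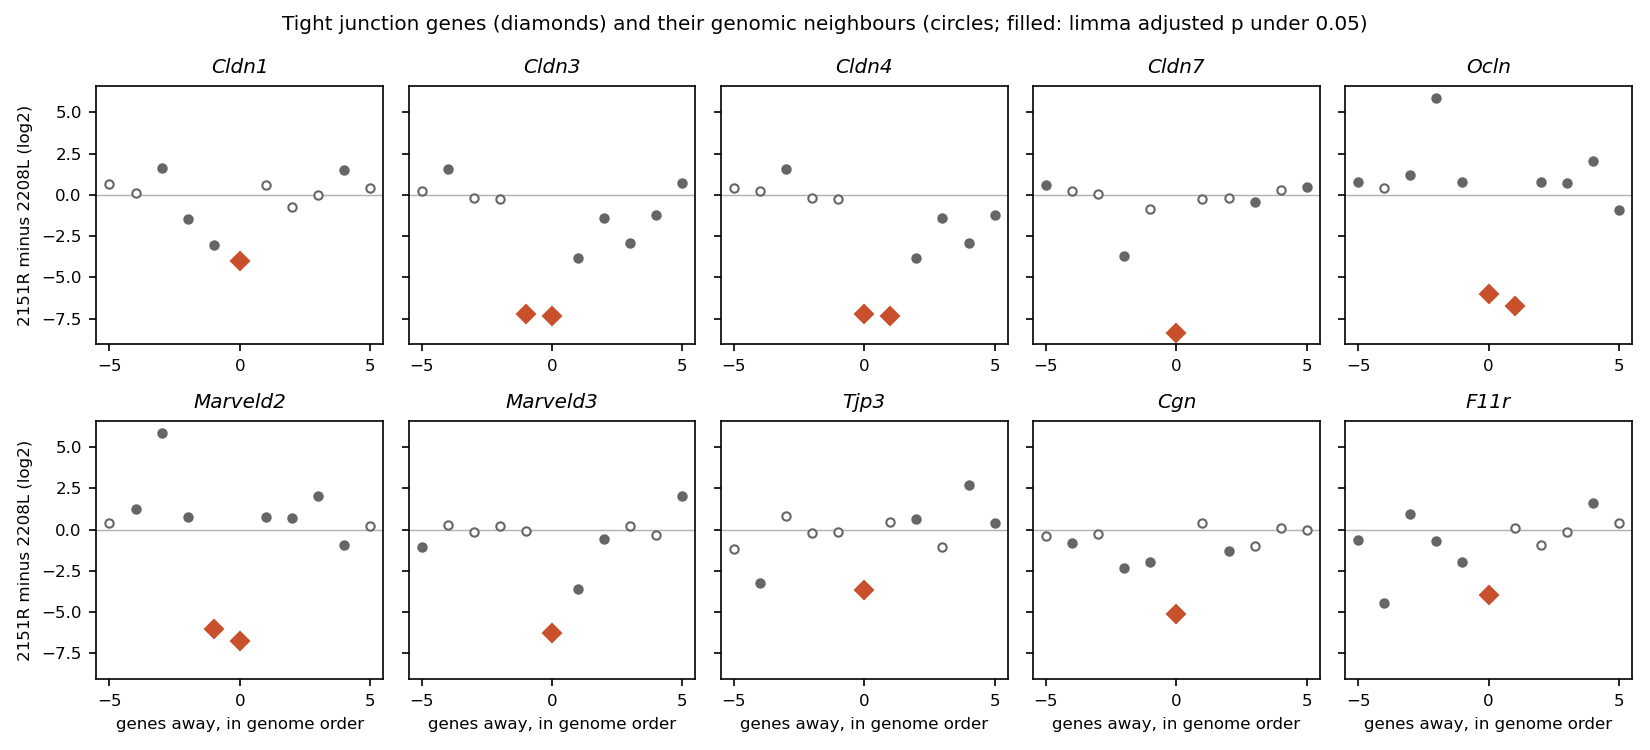
Difference between 2151R and 2208L in log2 units (vertical axis) of each of the 10 genes (diamonds) and its 5 nearest genes of the table on either side, in genome order (horizontal axis); filled circles have a limma adjusted p under 0.05. The diamonds are the lowest points of every panel but that of F11r, where Nectin4 lies lower (-4.46), and the circles lie on both sides of 0.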

How the data were processed

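RNA of 15 mouse mammary tumour samples was captured by poly(A) and sequenced, per the labels' protocols. STAR, Salmon and the build mm10 are listed in the submitters' processing notes, without versions or order. Log2 values of 17271 genes, each centred on a median, were deposited by the authors, and both the scale and the centring are known from the table's own name. The offset before the logarithm and the samples used for centring are not given in the sources used here, and only 6.51% of genes have a median of 0 over these samples. The table holds no counts, so depth is unknown and precision rests on the spread between samples. Of the 10 genes, 0 had a value shared exactly by several samples.

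Model means were contrasted on the deposited values by limma 3.58.1 under R 4.3.3 (linear fit, eBayes, no trend), in 1 fit of all 15 samples with a mean per model. The 7 samples of PBS and 3day nt had a fit of their own. A gene is called at an adjusted p under 0.05 (Benjamini-Hochberg over all 17271 genes). The fit was tested on simulated data. Changes of 1 log2 unit were called in 40% of cases for 2151R against 2208L, 26% for 2225L against 2208L and 8% for PBS against 3day nt. Changes of 4 units were called in 98%, 92% and 84%. The simulated data held far fewer changed genes than were called here, so these rates are not those of the real comparisons. For PBS against 3day nt the simulated spread was also that around the model means, which includes the difference between these subsets. The median SD of all genes was 0.258 in PBS and 0.189 in 3day nt, beside 0.409 in 2208L. Two-sided exact permutation tests (scipy 1.17.1) were run for the single genes. T11 has no replicate and no test. Genes were placed by symbol in the RefSeq annotation of GRCm38.p6 (16183 genes), promoter windows came from the same RefSeq build, and exons and introns from GENCODE. Replicate numbers follow the accessions and carry no pairing.

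The members and the lists were chosen with earlier results of these data known, and so were the 3 samples left out for their muscle markers. Named genes are the 10, from each pathway list up to 2 called genes in each direction, by the size of the difference of 2151R from 2208L, Tjp1, Cldn5, Epcam and Cdh1, and the 8 genes most like the 10. Some genes that this rule names are not reported here. The neighbouring genes and marker genes that are named besides these were chosen after their values were seen. Scaling, sample weights, filters, covariates and samples were varied, with the effects given at the end.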

Additional observations from a re-analysis of the deposited data

Results flagged for a closer look

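Over 42 named genes, 84 groups of 4 or 8 samples were examined for a sample far from the others by Dixon's test, and 6 had one. At 1 in 20, chance gives 4.2. Among the 10 junction genes this was Cldn3, at 2.02 in replicate 1 of 2208L, the sample marked ROSEN, where the other samples ran from 0.91 to 1.24. The same replicate was apart for St14, at 1.54 against 0.63 to 1.03, and for Tjap1, at -1.54 against -1.22 to -1.02. Within 2208L, Igsf5 stood at -3.16 in replicate 5 against -2.09 to -1.36. Within 2151R, Cdh1 stood at -6.13 in replicate 2 against -5.36 to -5.34, and Cldn5 at 0.63 in replicate 4 against -0.34 to -0.20.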

How the results depend on the processing

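All 10 genes stayed lower in 2151R than in 2208L, higher in 2225L than in 2151R and lower in T11 than in 2208L by over 1 unit under each alternative run for these counts, among them median centring, quantile normalization, sample weights, a library prefix covariate and leaving out each sample. In the subset of samples titled NT, nt or PBS, 0 of the 10 passed the exact test, since 2 samples of 2151R remain. No paired analysis was possible because replicate numbers are missing from the titles and none is shared between groups. The cause of the changes below was not tested.

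In 2225L against 2208L, 1 gene was higher and 1 lower with sample weights, 1 lower at a minimum of 1 log2 unit and 4 lower without the samples of high muscle score. With sample weights 958 of all genes were called higher and 1200 lower, where 2693 and 2994 were without weights, so the loss is shared by many genes. Leaving out single samples gave 1 to 2 higher and 1 to 3 lower. Differences near 0 changed sign. Cldn3 was 0.063 with sample weights and ran from -0.19 to 0.075 over left-out samples, Cldn4 was -0.44 with quantile normalization and ran from -0.32 to 0.59, and F11r ran from -0.46 to 0.095.

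In PBS against 3day nt, the 2 higher and 3 lower calls became 0 and 0 at 1 log2 unit or without the muscle samples (an alternative chosen after seeing the data), 1 and 1 in a fit of all 15 samples, 1 higher with an eBayes trend and 0 lower with quantile normalization. Leaving out single samples gave 0 to 2 higher and 0 to 2 lower. Over all genes, 1206 were called higher and 1002 lower at 1 log2 unit, where 3007 and 2857 were with no minimum. F11r was 0.0025 with centring and 0.10 with quantile normalization and ran from -0.12 to 0.012 over left-out samples. Marveld2 was -0.26 and Ocln -0.052 without the muscle samples, and Marveld2 ran from -0.089 to 0.14.

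In T11 against 2151R, 3 genes were lower with quantile normalization, where Cldn7 was 0.25 and Marveld2 0.16, and 0 were higher at 2 log2 units. For Tjp1 in 2151R against 2208L the difference was -0.0086 with the title prefix, -0.038 with quantile normalization and -0.088 with sample weights. It was -0.048 with NT, nt and PBS only and -0.029 without the muscle samples, and ran from -0.093 to 0.23 over left-out samples.

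Of the pathway genes, 2151R had 8 higher than 2208L with NT, nt and PBS only. In 2225L against 2151R, 27 were higher and 11 lower, of which 7 stayed lower at 1 log2 unit, and 5 were lower with sample weights. With sample weights 2723 of all genes were lower, where 4464 were without weights. In 2225L against 2208L, 5 were lower at 1 unit, 6 were higher and 2 lower with sample weights, and left-out samples gave 8 to 14 higher. In PBS against 3day nt, 2 were higher and 0 lower at 1 unit, 10 higher in the fit of 15 samples, 0 and 0 without the muscle samples, and 6 to 20 higher and 1 to 8 lower over left-out samples. At 2 units, 4 were higher in T11 than in 2151R and 6 than in 2208L. Of 160 neighbours within 10 genes on each side, 32 were higher and 42 lower. Of the 80 within 5 genes on each side, 9 were higher at 1 unit.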

Other observations

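Scaffold genes differed within 2208L. Of 14 scaffolds of the pathway list, 10 were higher in PBS than in 3day nt and 0 lower by limma, where 17.4% of all genes were called higher. Tjp1, the gene of ZO-1, stood at 0.31 to 0.82 in PBS and at -0.87 to -0.24 in 3day nt, without overlap, and differed by 1.11 (limma adjusted p 0.0088). Without replicates 6 and 8, which carry high muscle markers, 0 of the 62 pathway genes were called, and 76 higher and 22 lower of all 17271 genes. The 1 sample of 3day nt that is then left, replicate 7, holds the value of -0.24 for Tjp1, still below the PBS samples.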
